A study of Mus musculus with 8 samples.

Results

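Pluripotency marker genes are silent in fibroblasts and switch on as a cell is reprogrammed. The genes described here are 10 such markers, of 21938 protein-coding genes in the GENCODE annotation: Dppa2, Dppa3, Dppa4, Dppa5a, Tdgf1, Gdf3, Zfp42, Utf1, Tdh and Fbxo15. They were chosen by name. Each was given a window of the gene body and 20 kb either side on mouse genome build mm10, and every called peak that reached into a window was taken. CUT&Tag, in which an antibody tethers a transposase to its target so that the DNA nearby is tagged, had been performed on mouse embryonic fibroblasts (MEF) at day 5 of reprogramming. Both arms carried Oct4 on a retroviral vector. The arm labelled Nanog+Oct4 also received wild-type Nanog and is called NanogWT, and the arm labelled NanogN70+Oct4 received Nanog fused to the part of SS18 that binds BRG1 and is called NanogBiD, a match taken from the study's text. Per the study's methods the fibroblasts came from embryos of Oct4-GFP (OG2) males and wild-type 129 females, so a transgenic reporter was present in both arms. The targets were the FLAG tag on NANOG, BRG1 (SMARCA4, the motor subunit of the BAF complex), H3K27ac and H3K4me1. This gave 8 libraries, 1 for each of 4 targets in each of 2 arms. The study's methods speak of merging replicates before peaks were called, whereas its reporting summary says in general that experiments were repeated several times, and of the CUT&Tag that it was done a single time without biological replication. Either way each target had 1 peak list per arm, so no spread between cultures could be measured and no test between arms was made. The fibroblasts were infected as a mixed population, so fewer cells with a bound site and less binding per cell cannot be told apart.

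In embryonic stem cells these markers are expressed under the control of OCT4, SOX2 and NANOG, and most of them are shut in somatic cells by DNA methylation or repressive chromatin. H3K4me1 marks enhancers and the flanks of promoters whether or not they are active, whereas H3K27ac marks those that are active. BAF is a chromatin remodeller that uses the energy of ATP to move nucleosomes, and the fusion was built by the authors to bring it to sites bound by NANOG. The question for each gene was therefore where NANOG and BRG1 were called in each arm, and whether histone marks of enhancers or promoters lay at the same place.

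The peak lists differed in size between the arms. NanogBiD held more peaks than NanogWT for FLAG (74782 against 58940), BRG1 (53748 against 30859) and H3K27ac (42598 against 35452), and fewer for H3K4me1 (57156 against 72242). The files hold no depth. The study's reporting summary lists more read pairs in NanogBiD than in NanogWT for FLAG, by a factor of several, and for BRG1, by a smaller but still large factor, and somewhat fewer for H3K27ac and H3K4me1, so the sizes of the lists ran the same way as depth for every target but H3K27ac. A deeper library yields more called peaks, and the part of depth in the single-arm calls and tag ratios below was not tested. A ratio of tags read against 1 takes both arms as equally deep, and its interval does not cover this gap. Each comparison for the markers is therefore set beside the same comparison over all genes or all regions. Peak size is given as the summit height, the number of tags piled up at the peak's summit, which was not scaled to depth and had a median of 13 to 16 tags in the 8 lists. The labelled cell type was checked at promoters, taken as 2 kb either side of a start site. Of all protein-coding genes, 57.1% carried H3K27ac there in NanogWT and 59.9% in NanogBiD. Of 10 fibroblast markers, 9 carried H3K27ac in both arms (Prrx1 did not), while the epithelial list had 0 of 5 marked promoters in NanogWT and 1 of 5 in NanogBiD. Endothelial markers carried H3K27ac at 1 of 4 promoters in NanogWT and 3 of 4 in NanogBiD, and blood markers at 1 of 3 and 2 of 3. The part of these other markers in the results was not tested.

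The DNA beneath the FLAG summits that carry the account is shown here, as 101 bases of the forward strand of mm10 centred on the summit, from the RefSeq copy of that assembly. The sites near Dppa5a, Gdf3, Tdgf1 and Zfp42 are 4 of the 7 where BRG1 was called in NanogBiD alone, the others, a further site near Tdgf1 and those near Fbxo15, not being shown, and the site near Tdh is one where BRG1 was called in NanogWT alone. The tallest FLAG site near Dppa5a and the site upstream of Dppa3 were added after their values were seen. Capitals mark a match to a short motif, the OCT4 octamer ATGCAAAT near Dppa3 and the NANOG core TAATGG in Tdgf1, each read here from the opposite strand. The gene position beside a name is that of the printed bases in GENCODE, and the called regions around the sites near Gdf3, Tdgf1 and Tdh are wider and also overlap exons. The other sequences held no match to these or to the SOX, AP-1 and TEAD motifs described further on.
Dppa5a, NanogBiD, FLAG only, chr9:78364887-78364987: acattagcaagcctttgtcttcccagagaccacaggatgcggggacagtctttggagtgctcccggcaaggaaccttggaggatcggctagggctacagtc
Dppa5a, NanogBiD, FLAG and BRG1, chr9:78373357-78373457: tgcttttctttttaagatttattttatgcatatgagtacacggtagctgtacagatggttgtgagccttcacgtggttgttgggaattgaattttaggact
Gdf3 (in an intron of Apobec1), NanogBiD, FLAG and BRG1, chr6:122591289-122591389: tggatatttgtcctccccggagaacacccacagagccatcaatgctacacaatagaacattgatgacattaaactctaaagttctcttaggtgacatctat
Tdgf1 (in an intron of Tdgf1), NanogBiD, FLAG and BRG1, chr9:110945299-110945399: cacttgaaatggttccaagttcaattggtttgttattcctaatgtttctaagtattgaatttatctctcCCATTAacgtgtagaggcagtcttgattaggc
Zfp42, NanogBiD, FLAG and BRG1, chr8:43282305-43282405: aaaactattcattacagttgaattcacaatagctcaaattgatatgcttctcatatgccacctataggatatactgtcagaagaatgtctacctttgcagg
Tdh (in an intron of Mtmr9), NanogWT, FLAG and BRG1, chr14:63523131-63523231: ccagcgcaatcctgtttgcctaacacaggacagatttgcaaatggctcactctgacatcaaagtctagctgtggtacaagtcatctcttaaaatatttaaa
Dppa3, NanogBiD, FLAG without BRG1, chr6:122624573-122624673: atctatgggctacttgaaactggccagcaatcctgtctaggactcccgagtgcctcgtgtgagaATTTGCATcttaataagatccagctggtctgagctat
The sequence of the Dppa5a site with BRG1 lay wholly in annotated repeats (100% of its bases), whereas none of the bases of the taller Dppa5a site, the Gdf3 site, the Zfp42 site or the Dppa3 site did.

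Across the 10 windows, FLAG was called at 15 peaks in NanogWT and 25 in NanogBiD. The windows of Dppa5a, Gdf3, Utf1 and Fbxo15 held more FLAG peaks in NanogBiD, 4 of 10 genes, beside 40.9% of all protein-coding genes, and 0 held fewer, beside 14.4% of all genes. At Utf1 the extra peak was a split of a single NanogWT peak at the same place. For BRG1 the windows held 10 peaks in NanogWT and 14 in NanogBiD. The NanogBiD count was the higher at 5 genes and the lower at 1, beside 42.1% and 10.1% of all genes. H3K27ac had 9 and 12 peaks, with the higher count in NanogBiD at 4 genes and the lower at 1 (29.1% and 13.5% of all genes). The H3K27ac peak added at Dppa3 and at Gdf3 was the same peak, in the overlap of their windows. H3K4me1 had 24 peaks in NanogWT against 18 in NanogBiD, and NanogBiD held more of them at 1 gene and fewer at 6 (16.3% and 42.5% of all genes). FLAG was called in NanogBiD only at 1 gene (Dppa5a) and in NanogWT only at 0, beside 3.87% and 1.77% of all genes. BRG1 was called in NanogBiD only at Dppa5a and Zfp42 (6.54% of all genes) and in NanogWT only at Tdh (1.55%). H3K27ac was confined to a single arm at 0 genes (4.11% of all genes in NanogBiD only and 1.22% in NanogWT only), and H3K4me1 was in NanogWT only at Zfp42 (2.69%) and in NanogBiD only at 0 (1.60%). Neither arm had a FLAG peak at 2 genes (18.4% of all genes), a BRG1 peak at 2 (21.0%), an H3K27ac peak at 5 (22.1%) or an H3K4me1 peak at 2 (17.5%). For the counts of more and fewer peaks, the shares of markers were near those of all genes, so those counts are not a result about the markers. The windows of the markers had a median length of 48.5 kb, against 57.4 kb for all protein-coding genes.

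**Figure D1:**
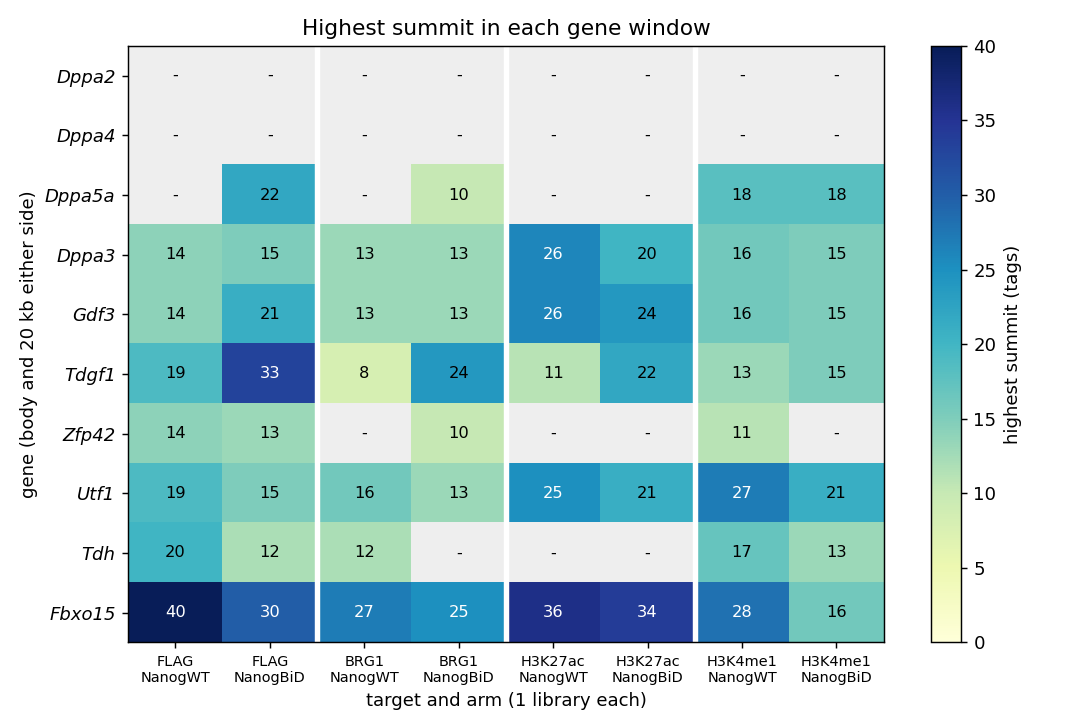
Highest summit, in tags, in the window of each of the 10 genes (rows) for each target and arm (columns, 1 library each), with a dash where no peak was called. Dppa2 and Dppa4 have no value in any column, Dppa5a has FLAG and BRG1 values in NanogBiD alone, and the Fbxo15 window reaches 40 tags of FLAG in NanogWT.

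The 4 developmental pluripotency associated genes fell into separate patterns. Dppa2 (chr16:48303908-48319723, plus strand) and Dppa4 (chr16:48283733-48294237, plus strand) encode partner proteins with a SAP domain that bind chromatin and prime developmental genes. They are neighbours, and their windows overlap. No peak of any target was called in either window in either arm, whereas 8 of the 10 markers, and 85.0% of all protein-coding genes, had at least 1 peak. A level below the calling threshold cannot be told from no binding in a list of called peaks.

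Dppa5a (chr9:78367052-78368177, minus strand) encodes an RNA-binding protein with a KH domain that is abundant in embryonic stem cells. The study itself named Dppa5a from this experiment, so its pattern is not independent of that choice. No FLAG and no BRG1 peak was called in the window in NanogWT. In NanogBiD, 4 FLAG peaks were called, with summits of 7, 22, 15 and 10 tags. The tallest lay downstream of the gene, at 2.9 to 3.6 kb from its start (chr9:78364530-78365323, intergenic), and 91.5% of all FLAG regions called in NanogBiD alone were lower. The peak of 15 tags lay upstream, at -5.7 to -4.8 kb (chr9:78372994-78373828, intergenic). It was the place where BRG1 was called, at 10 tags, and the FLAG and BRG1 summits were 54 bp apart. That BRG1 peak was a weak one: its score, the peak caller's significance score, was 56.0 in a list whose lowest score was 50, and 31.6% of the BRG1 regions called in NanogBiD alone were lower. The peak of 10 tags, at -6.7 to -6.0 kb, overlapped an H3K4me1 peak of 14 tags called in NanogBiD alone. No peak of any target was called within 2 kb of the start of Dppa5a, and H3K27ac was called nowhere in the window. A second H3K4me1 site, at -10.8 to -9.8 kb over the start of the neighbouring gene Ooep, had 18 tags in each arm. FLAG and BRG1 peaks in NanogBiD with neither in NanogWT were found at 1.48% of all protein-coding genes and, among the markers, at Dppa5a alone.

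Dppa3 (chr6:122626410-122630272, plus strand; also known as Stella) encodes a protein that guards DNA methylation of the early embryo. Its window overlaps that of Gdf3, and peaks in the overlap are counted for both. The site upstream of its start, at -2.3 to -1.3 kb (chr6:122624117-122625159), had FLAG in both arms, with 13 tags in NanogWT and 11 in NanogBiD. The FLAG summits of the arms were 13 bp apart, and an octamer lay within 50 bp of both. H3K4me1 was also called there in both arms, with 16 and 15 tags, whereas H3K27ac was called in NanogBiD alone, with 11 tags. That H3K27ac peak had a score of 58.3, close to the lowest in the list, and 26.5% of its class were lower in height. BRG1 was not called at this site. H3K4me1 inside the gene, at 1.1 to 2.0 kb, was called in NanogBiD alone with 15 tags. Downstream, at 6.8 to 7.6 kb, FLAG was called in NanogWT alone with 10 tags, beside H3K4me1 of 16 and 13 tags in the 2 arms. A last H3K4me1 site, 23.0 to 23.7 kb from the start, was called in NanogWT alone with 13 tags. GENCODE lists related copies or pseudogenes of Dppa5a, Dppa3, Tdgf1 and Zfp42 elsewhere in the genome. Reads that could be placed equally well on a copy had been filtered on mapping quality by the authors.

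Tdgf1 and Gdf3 belong to the Nodal pathway. Tdgf1 (chr9:110939603-110946158, minus strand; also known as Cripto) encodes a membrane-bound co-receptor of Nodal. Its window held the tallest BRG1 peak of the markers among those called in NanogBiD alone. The site covered the start of the gene body, at 0.1 to 2.2 kb (chr9:110943959-110946011). FLAG was called there in both arms, with 19 tags in NanogWT against 33 in NanogBiD. Their ratio was 1.74, with an exact binomial 95% interval of 0.959 to 3.23 that covers counting error only, and their scores were 209.6 and 204. BRG1 was called in NanogBiD alone, with 24 tags and a score of 178, and 97.3% of the BRG1 regions called in NanogBiD alone were lower. The FLAG and BRG1 summits in NanogBiD were 4 bp apart, whereas the FLAG summits of the 2 arms were 451 bp apart. H3K4me1 was called at this site in NanogWT alone, with 12 tags. A second site abutted the gene's start on the upstream side, at -2.4 to -0.1 kb (chr9:110946299-110948598). All its peaks were in NanogBiD: FLAG with 24 tags, H3K27ac with 20 tags and H3K4me1 with 13 tags, without BRG1. The H3K27ac peak was taller than 95% of the H3K27ac regions called in NanogBiD alone. The FLAG peak was taller than 94.2% of its class, but its score of 55.5 was close to the lowest in the list. In NanogWT, neither H3K27ac nor BRG1 was called within 2 kb of the start of Tdgf1.

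Another site in the Tdgf1 window lay at -9.7 to -7.2 kb, over an annotated start site of the neighbouring gene Lrrc2 (chr9:110953383-110955855). FLAG had 9 tags in NanogWT against 18 in NanogBiD (exact binomial 95% interval of the ratio 0.853 to 5.05), at summits 492 bp apart. H3K27ac had 11 and 22 tags, the same ratio (0.930 to 4.57), and H3K4me1 had 13 and 15 tags. BRG1 was called in NanogBiD alone, with 15 tags. Both intervals included 1, so the differences in height at this site were within counting error. The scores at this site were 69.8 and 92.9 for FLAG and 127 and 96.7 for H3K27ac, so the H3K27ac score was the lower in NanogBiD. The Tdgf1 window was not one-sided, however. FLAG at -16.6 to -15.9 kb was called in NanogWT alone with 16 tags, more than 86.6% of the FLAG regions of that class. BRG1 was also called in NanogWT alone at 23.9 to 24.5 kb, nearest to a start of Fam240a, with 8 tags. H3K4me1 was called in NanogWT alone at -15.2 to -14.5 kb, with 9 tags.

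Gdf3 (chr6:122605403-122610087, minus strand) encodes a secreted ligand of the TGF-beta superfamily that signals through the same receptors as Nodal. Its promoter and gene body, at -0.3 to 2.5 kb (chr6:122607613-122610368), carried all 4 targets in both arms. FLAG had 14 tags in NanogWT and 15 in NanogBiD, BRG1 13 in each, H3K27ac 26 and 20, and H3K4me1 15 and 12. The highest summits of the arms differed there by no more than counting error, with ratios of 0.769 to 1.07. Within this joined region, a separate H3K4me1 peak of 14 tags over the start of the gene (chr6:122609123-122610187) was called in NanogWT alone. The start of the neighbouring gene Apobec1, at 6.8 to 8.2 kb, likewise had FLAG (10 and 9 tags), BRG1 (9 in each) and H3K27ac (21 and 24) in both arms. The arms parted at 18.4 to 19.1 kb, inside Apobec1 (chr6:122590996-122591672), where FLAG of 21 tags and BRG1 of 12 tags were called in NanogBiD alone. Their summits were 22 bp apart, and neither histone mark was called. Of the FLAG regions called in NanogBiD alone, 89.7% were lower, and of the BRG1 regions 56.1%. An intergenic FLAG peak at -6.5 to -5.9 kb, with 9 tags, was also called in NanogBiD alone. Whether a site within Apobec1 acts on Gdf3 was not tested.

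Zfp42 and Utf1 encode nuclear factors. Zfp42 (chr8:43295063-43306980, minus strand; also known as Rex1) is a zinc finger protein whose expression marks the naive state of embryonic stem cells. No peak was called within 2 kb of its start. A single intergenic site beyond the 3' end of the gene, at 24.3 to 25.2 kb (chr8:43281732-43282635), had FLAG in both arms, with 14 tags in NanogWT and 13 in NanogBiD. BRG1 was called there in NanogBiD alone, with 10 tags, and the FLAG and BRG1 summits were 153 bp apart. BRG1 called in NanogBiD alone with FLAG in both arms was found at 4.44% of all protein-coding genes. H3K27ac was called nowhere in the Zfp42 window, and H3K4me1 was called at 1 place in NanogWT, with 11 tags at 14.4 to 14.9 kb, and not in NanogBiD.

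Utf1 (chr7:139943789-139945112, plus strand) encodes a chromatin-bound factor found mainly in stem cells and germ cells. The gene itself, at -0.2 to 1.7 kb, carried H3K4me1 in both arms, with 23 tags in NanogWT and 21 in NanogBiD, and none of the other targets. The sites on either side of it carried all 4 targets in both arms. The upstream site, at -14.9 to -11.2 kb over Kndc1, had FLAG of 19 and 14 tags, BRG1 of 16 and 13, H3K27ac of 25 and 14, and H3K4me1 of 27 and 16. All 4 targets were lower in NanogBiD there, the H3K27ac ratio being 0.560 (exact binomial 95% interval 0.269 to 1.12), within counting error. The downstream site, at 5.7 to 7.5 kb, had FLAG of 16 and 15 tags, BRG1 of 13 and 11 and H3K27ac of 23 and 21. H3K4me1 was higher in NanogBiD there, with 12 and 19 tags, a ratio of 1.58 with an interval of 0.730 to 3.58. H3K27ac of 12 tags and H3K4me1 of 17 tags at 13.7 to 14.9 kb were called in NanogWT alone. No site in the Utf1 window was called for any target in NanogBiD alone.

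Tdh and Fbxo15 are markers with roles outside transcription. Tdh (chr14:63492347-63509092, minus strand) encodes the mitochondrial threonine dehydrogenase on which mouse embryonic stem cells depend. Its promoter carried H3K4me1 of 13 tags in each arm and no other target. At -14.4 to -13.6 kb, over the neighbouring gene Mtmr9 (chr14:63522721-63523542), FLAG had 20 tags in NanogWT against 12 in NanogBiD (exact binomial 95% interval of the ratio 0.267 to 1.29). BRG1, with 12 tags, and H3K4me1, with 17 tags, were called there in NanogWT alone. The FLAG and BRG1 summits in NanogWT were 6 bp apart. The BRG1 peak was taller than 71.8% of the BRG1 regions called in NanogWT alone.

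Fbxo15 (chr18:84934782-84981473, plus strand) encodes an F-box protein used as a reporter of reprogramming. It had the longest window, 86.7 kb, and the most FLAG peaks, 4 in NanogWT and 8 in NanogBiD. The promoter, at -1.6 to 2.6 kb, carried all 4 targets in both arms, with FLAG of 33 and 25 tags, BRG1 of 15 and 16, H3K27ac of 28 and 29, and H3K4me1 of 28 and 16. An extra FLAG peak of 14 tags just before the gene's start was called in NanogBiD alone, with a score of 55.4. Upstream, at -20.0 to -19.5 kb, H3K4me1 of 11 tags was called in NanogWT alone. The site over the start of Timm21, at 15.5 to 17.8 kb and also within 2 kb of an annotated start site of Fbxo15, had FLAG summits of 40 and 30 tags, with BRG1 of 27 and 25 and H3K27ac of 36 and 34. Between these sites, at 9.6 to 12.5 kb, lay a site whose nearest protein-coding start was that of Timm21, 798 bp away. FLAG had 22 and 13 tags there and H3K27ac 28 and 19. BRG1 of 16 tags and H3K4me1 of 19 tags were called there in NanogWT alone. That BRG1 peak was taller than 94.2% of its class.

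Downstream of these sites, the FLAG, BRG1 and H3K27ac calls made in a single arm were in NanogBiD. The site at 32.4 to 33.4 kb lay within an intron and within 2 kb of another annotated start site of Fbxo15. FLAG of 13 tags, BRG1 of 9 and H3K27ac of 12 were called there in NanogBiD alone, with scores of 62.6, 57.8 and 75.4. The lowest score in each list was 50, and 17.5% of the BRG1 regions called in NanogBiD alone were lower in height. H3K4me1 there had 15 and 13 tags in the 2 arms. FLAG at 35.4 to 36.6 kb was also called in NanogBiD alone, with 11 tags and a score of 134. So were FLAG and H3K27ac at 51.5 to 52.6 kb, with 9 and 10 tags and scores of 54.1 and 71.9. Both sites lay over H3K4me1 present in both arms. At 62.4 to 64.0 kb, FLAG had 13 and 19 tags and H3K4me1 12 and 13. BRG1 of 13 tags was called there in NanogBiD alone, with a score of 107. The last of these FLAG sites and the one before it lay between genes, beyond the end of Fbxo15. The Fbxo15 window had BRG1 called in a single arm in both directions, at different sites, the NanogWT site being nearest to a start of Timm21.

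**Figure D2:**
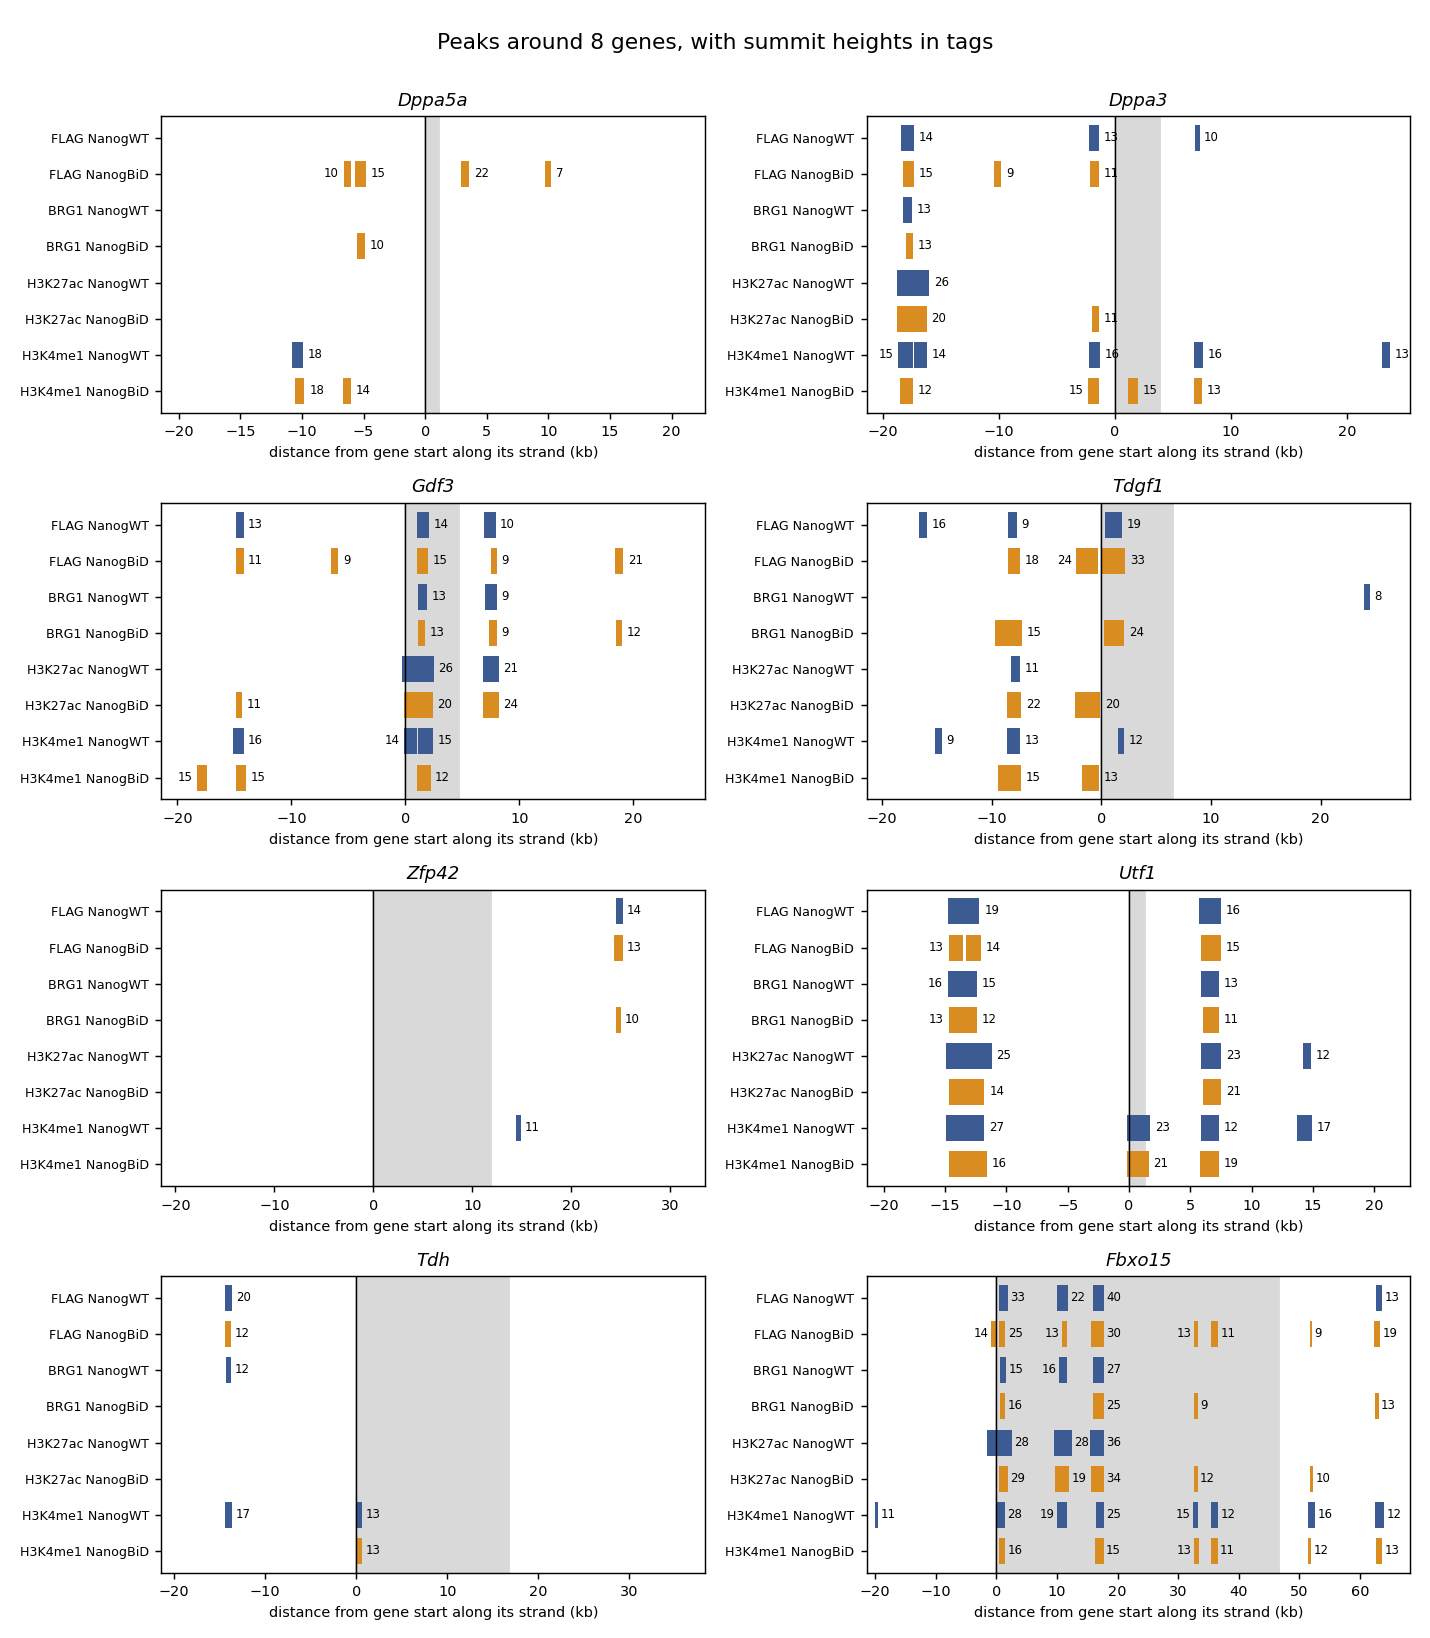
Peaks of the 4 targets in NanogWT (blue) and NanogBiD (orange) around the 8 genes with any peak, by distance in kb from the gene's start along its strand, with the summit height in tags beside each bar and the gene body in grey. FLAG and BRG1 near Dppa5a appear in the NanogBiD rows alone, and the 24 tags of BRG1 at Tdgf1 sit over FLAG of 33 tags.

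Over all windows, peaks of the 2 arms that overlapped or touched were joined into regions for each target. FLAG had 26 regions, 13 with a peak in both arms (50%, beside 50.5% of all FLAG regions), 11 in NanogBiD only and 2 in NanogWT only (7.69%, beside 15.8%). The share in NanogBiD only was 42.3% (Wilson 95% interval 25.5 to 61.1%, counting error only), beside 33.7% of all FLAG regions. BRG1 had 16 regions, 6 in both arms (37.5%, beside 41.6%), 7 in NanogBiD only (43.8%, 23.1 to 66.8%, beside 48.4% of all BRG1 regions) and 3 in NanogWT only (18.8%, 6.59 to 43.0%, beside 9.91%). H3K27ac had 13 regions, 8 in both arms (61.5%, beside 56.4%), 4 in NanogBiD only (30.8%, 12.7 to 57.6%, beside 29.1%) and 1 in NanogWT only (7.69%, beside 14.6%). H3K4me1 had 27 regions, 15 in both arms (55.6%, beside 47.9%), 3 in NanogBiD only (11.1%, 3.85 to 28.1%, beside 17.3%) and 9 in NanogWT only (33.3%, 18.6 to 52.2%, beside 34.8%). The interval for the markers included the value for all regions in each case.

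Of the regions called in a single arm, those in NanogBiD made up 84.6% for FLAG (11 of 13, Wilson 95% interval 57.8 to 95.7%), 70.0% for BRG1 (7 of 10, 39.7 to 89.2%), 80.0% for H3K27ac (4 of 5, 37.6 to 96.4%) and 25% for H3K4me1 (3 of 12, 8.89 to 53.2%). The same shares over the genome were 68.0%, 83.0%, 66.6% and 33.2%, each within the markers' interval. The directions for FLAG, BRG1 and H3K27ac depended on which peaks were kept. With a score of at least 100, 4 of 8 FLAG, 3 of 3 BRG1 and 1 of 2 H3K27ac regions of a single arm were in NanogBiD. When each list was limited to its 20000 highest-scoring peaks, which makes the lists equal in size, 0 of 3 FLAG, 1 of 7 BRG1 and 0 of 1 H3K27ac regions of a single arm were in NanogBiD. With a summit of at least 15 tags, BRG1 had 2 of 5. The shares over the genome were not computed at these limits, so whether the turn is particular to the markers was not tested.

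**Figure D3:**
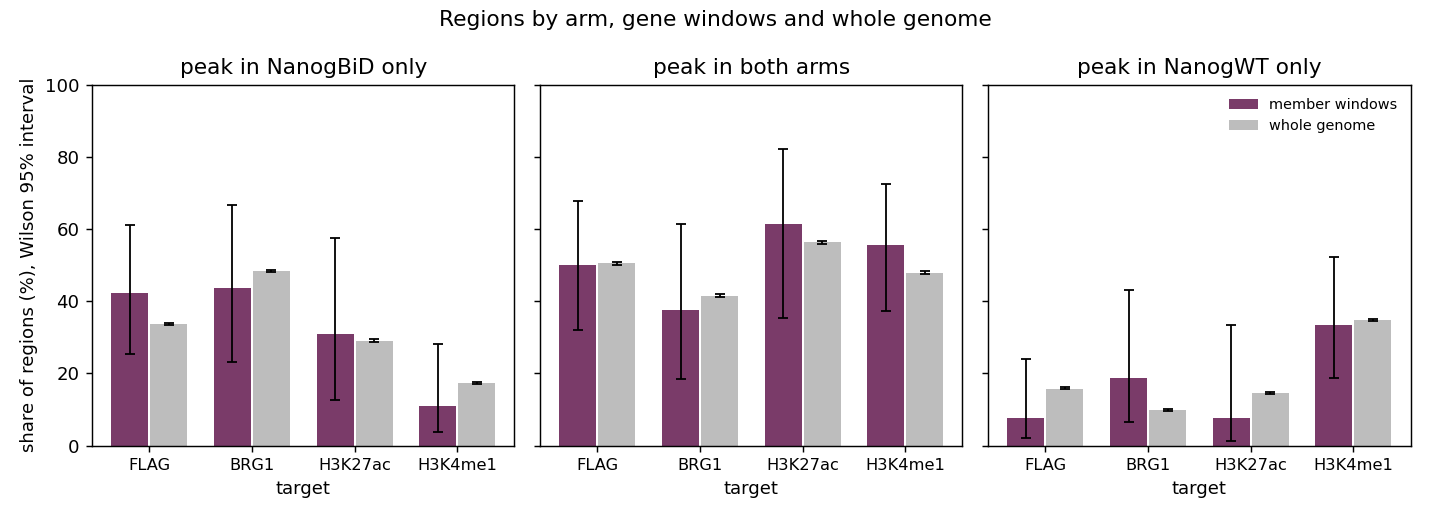
Share of regions (percent, bars from 0) with a peak in NanogBiD only, in both arms or in NanogWT only, for each target in the windows of the 10 genes (purple) and in the whole genome (grey), with Wilson 95% intervals as error bars. The intervals of the marker windows include the genome's share in every class, for example 42.3% beside 33.7% for FLAG in NanogBiD only.

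Heights were compared at the regions shared by the arms. At 13 regions the FLAG summits of the arms were 0 to 1313 bp apart (median 63.0 bp), so some ratios compare different positions. The median log2 ratio of NanogBiD over NanogWT at the markers was -0.15 for FLAG (13 regions), -0.06 for BRG1 (6 regions), -0.11 for H3K27ac (8 regions) and -0.13 for H3K4me1 (15 regions). Over all shared regions of the genome it was 0.15, 0.14, 0.08 and -0.18. FLAG was higher in NanogBiD at 4 of 13 marker regions and lower at 9, beside 58.6% higher and 34.7% lower of the shared FLAG regions of the genome. H3K4me1 was higher at 3 of 15, lower at 10 and equal at 2, beside 23.8% higher and 66.2% lower. A counting interval of the ratio that excluded 1 was found at 0 of 13 FLAG, 0 of 6 BRG1, 0 of 8 H3K27ac and 0 of 15 H3K4me1 regions. Over the genome, the interval lay above 1 at 6.63% and below 1 at 1.78% of shared FLAG regions, at 5.17% and 0.109% for BRG1, at 0.784% and 0.287% for H3K27ac, and at 0.00723% and 0.294% for H3K4me1. Heights of at least 1.5-fold higher in NanogBiD were found at 2 FLAG regions, beside 22.0% of all shared FLAG regions. Both lay in the Tdgf1 window, 1 of them over a start site of Lrrc2. Heights of at least 1.5-fold lower were found at 2, in the windows of Tdh and Fbxo15, beside 8.45%. For BRG1 the counts were 0 and 0 (20.5% and 4.53% of all shared BRG1 regions). For H3K27ac they were 1, at the same Lrrc2 site, and 1 near Utf1 (9.59% and 4.01%). For H3K4me1 they were 1 near Utf1 against 3 near Utf1 and Fbxo15 (1.06% and 11.7%). No difference in height beyond counting error was found at the shared regions of the markers, which does not show that the arms were equal there.

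**Figure D4:**
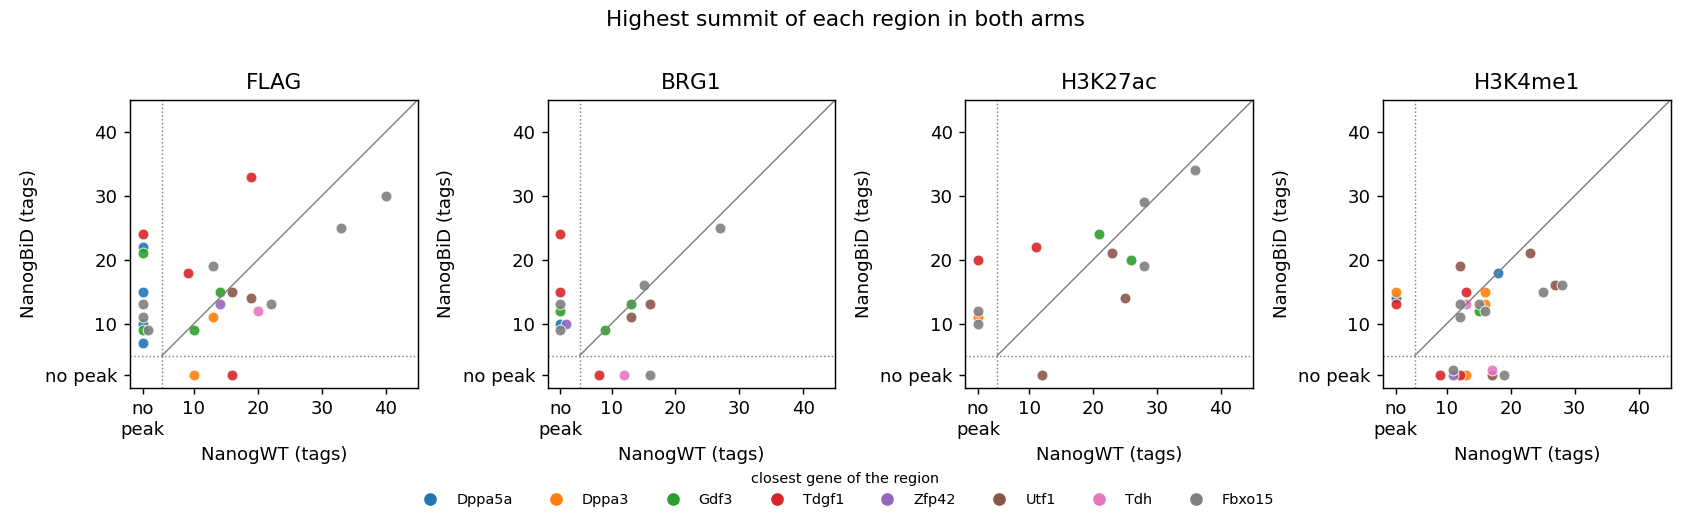
Highest summit in tags of each region, joined over the 4 targets, in NanogWT (x axis) and NanogBiD (y axis), a panel for each target, coloured by the closest of the genes, with regions called in a single arm in the strips marked no peak and shifted slightly where points coincide. Points lie on both sides of the line of equal height, Tdgf1 reaches 33 tags of FLAG in NanogBiD against 19 in NanogWT, and its BRG1 point of 24 tags lies in the strip without a NanogWT peak.

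The pairing of NANOG with BRG1 was then described within each arm. Of the FLAG peaks in the marker windows, 8 of 15 overlapped a BRG1 peak in NanogWT (53.3%, Wilson 95% interval 30.1 to 75.2%) and 14 of 25 in NanogBiD (56.0%, 37.1 to 73.3%). Over the genome the shares were 44.1% and 64.7%, inside those intervals. The distance from the FLAG to the BRG1 summit had a median of 49.5 bp at 8 regions in NanogWT (6 to 181 bp) and 54.0 bp at 13 regions in NanogBiD (4 to 1651 bp, the farthest at the wide site upstream of Utf1). Joining all 4 targets gave 35 regions in the windows. FLAG was called in both arms at 13 of them, of which 6 had BRG1 in both arms (46.2%, 23.2 to 70.9%, beside 49.9% of all such regions), 4 in NanogBiD only, 2 in NanogWT only and 1 in neither arm. BRG1 in at least 1 arm was thus called at 12 of 13, beside 85.0%. The 4 with BRG1 in NanogBiD only (30.8%, 12.7 to 57.6%) stood beside 31.9% of all regions with FLAG in both arms. They lay near Zfp42, near Fbxo15 and at 2 places in the Tdgf1 window, 1 of these over a start site of Lrrc2. The 2 with BRG1 in NanogWT only (15.4%, 4.33 to 42.2%) lay in the windows of Tdh and Fbxo15, nearest to starts of Mtmr9 and Timm21. The share over all regions with FLAG in both arms was 3.19%, which is below the interval, but the marker share rests on 2 regions. FLAG was called in NanogBiD only at 10 joined regions, 1 fewer than for FLAG by itself because the extra peak before Fbxo15 falls in the region of its promoter. BRG1 was called at 3 of them, near Dppa5a, Gdf3 and Fbxo15, and not at the other 7. The same share over all regions with FLAG in NanogBiD only was not computed, so these counts are no result about the markers. Regions with both FLAG and BRG1 in NanogBiD only made up 3 of 35 (8.57%, 2.96 to 22.4%), beside 8.31% of all regions, and those with both in NanogWT only 0 of 35 (Wilson upper limit 9.89%), beside 1.13%. Of the 16 regions with BRG1 in either arm, 15 also had FLAG in either arm, beside 91.1% of all regions with BRG1.

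Of the 7 BRG1 regions in NanogBiD only, 2 overlapped H3K27ac in the same arm, beside 39.8% of all BRG1 regions in NanogBiD only. These 2 lay over a start site of Lrrc2 in the Tdgf1 window and within Fbxo15. No H3K27ac peak in NanogBiD overlapped the others, near Dppa5a, Gdf3, Zfp42, at the start of Tdgf1 and downstream of Fbxo15. FLAG was called within 2 kb of a start site at 4 of 10 genes in each arm (Dppa3, Gdf3, Tdgf1 and Fbxo15), beside 55.2% of all genes in NanogWT and 56.8% in NanogBiD. BRG1 was called at the promoters of Gdf3 and Fbxo15 in NanogWT, and of these and Tdgf1 in NanogBiD, 2 and 3 of 10 beside 53.9% and 55.5%. H3K27ac was called at 2 of 10 promoters in NanogWT (57.1% of all genes) and 4 of 10 in NanogBiD (59.9%), Dppa3 and Tdgf1 being the additions. H3K4me1 was called at 6 of 10 in each arm (63.3% and 62.0%), with Utf1 and Tdh among them. The promoters of Dppa2, Dppa4, Dppa5a and Zfp42 carried none of the targets in either arm. Of the 35 regions, 10 lay within 2 kb of a start site of a marker, 22 had a marker's start as the nearest protein-coding start site, and 17 overlapped an exon, 3 lay within introns and 15 between genes.

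Short motifs were counted within 50 bp of the FLAG summits on both strands. They were ATGCAAAT (the OCT4 octamer), ACAATG (SOX), TAATGG (NANOG), TGANTCA (AP-1) and GGAATG (TEAD). The octamer was found at 1 of 15 summits in NanogWT and 1 of 25 in NanogBiD, in both cases the site upstream of Dppa3 printed above, beside 1.81% and 2.49% of all FLAG summits. The NANOG core was found at 0 of 15 and 1 of 25, the latter in the Tdgf1 sequence printed above, beside 4.99% and 7.32%. The SOX core was found at 1 of 15 and 1 of 25 (7.10% and 8.36% of all summits), AP-1 at 0 of 15 and 1 of 25 (8.14% and 10.4%), and TEAD at 1 of 15 and 0 of 25 (7.40% and 6.75%). With 15 and 25 summits these shares were too imprecise to separate from those of all summits.

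In the windows of 18 further genes, among them Esrrb, Klf4, Sall4, Sox2 and the endogenous Nanog and Pou5f1, FLAG had 32 peaks in NanogWT and 41 in NanogBiD. FLAG peaks were more numerous in NanogBiD at 10 genes and fewer at 4, and BRG1 peaks, 21 and 29 in all, were more numerous at 8 and fewer at 3. Over all protein-coding genes, FLAG peaks were more numerous at 40.9% and fewer at 14.4%, and BRG1 peaks at 42.1% and 10.1%. FLAG was called in NanogBiD only at Prdm14 and in NanogWT only at Sox2 and Tcl1, 1 and 2 of 18 beside 3.87% and 1.77% of all genes. BRG1 was called in NanogBiD only at Esrrb, Lin28a and Pou5f1 and in NanogWT only at Tfcp2l1, 3 and 1 of 18 beside 6.54% and 1.55%. H3K27ac had 24 and 27 peaks, more in NanogBiD at 4 genes and fewer at 2 (29.1% and 13.5% of all genes), and H3K4me1 64 and 46, with fewer in NanogBiD at 11 of the 18 genes, beside 42.5% of all genes. Nanog and Pou5f1 are also carried on the vectors, whose sequence shares their exons, so tags there may come from either source.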

How the data were processed

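CUT&Tag peak and summit lists of 8 libraries were used. Per the study's methods, the authors trimmed reads (Trim Galore 0.6.4), aligned them to mm10 (Bowtie2 2.4.5), filtered repetitive, poorly mapped and mitochondrial reads (SAMtools 1.16.1), and called peaks with MACS 1.4.2, keeping 1 tag per position, with no control named. The methods describe a merging of replicates, but the reporting summary, which speaks in general of repeated experiments, gives the CUT&Tag as done a single time. In the peak lists the deposited score is the caller's significance score (minimum 50), and in the summit lists the deposited signal is the summit height in tags. Neither was scaled to depth, which the files do not hold, and with 1 list per target and arm no value has a replicate error.

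The members and gene lists were chosen with earlier results of these data known. Genes and start sites came from GENCODE M21, and chromosome lengths matched mm10. Windows were the gene body and 20 kb either side. Peaks overlapping by at least 1 bp, or touching, were joined into regions, and a region's height was its highest summit. All 10 genes were named, with the tallest FLAG region, regions with FLAG and BRG1 in a single arm, and promoter regions (2 kb either side of a start site) of each. Shares have Wilson intervals and tag ratios exact binomial intervals, at 95%, for counting error only. Whole-genome values used all regions or all 21938 protein-coding genes. Motifs were matched in RefSeq GRCm38 sequence. Alternatives changed the score, height and list size, the window, the joining of peaks and the scale of heights. Counting was tested on simulated data. Python 3.11.15, pandas 2.3.3 and SciPy 1.17.1 were used.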

Additional observations from a re-analysis of the deposited data

How the results depend on the processing

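Of 62 alternative values for the 10 results, 12 lay outside the interval of the value reported, 4 of them also turned in direction, 1 more turned inside its interval, and 49 did neither. When each list was limited to its 20000 highest-scoring peaks, the share of single-arm regions in NanogBiD was 0% for FLAG (0 of 3), 14.3% for BRG1 (1 of 7) and 0% for H3K27ac (0 of 1), and 75.0% of NanogBiD FLAG peaks overlapped BRG1 (3 of 4). With a score of at least 100 the shares were 50% for FLAG (4 of 8), 100% for BRG1 (3 of 3) and 0% for H3K4me1 (0 of 4), and 25% of NanogWT FLAG peaks overlapped BRG1 (3 of 12). With a summit of at least 15 tags, BRG1 was 40% (2 of 5) and the overlap in NanogBiD 36.4% (4 of 11). With 10 kb either side H3K27ac was 100% (4 of 4). With only regions nearest to a marker's start site, an alternative added after seeing the data as was leaving out the Fbxo15 window, BRG1 was 100% (5 of 5). Relative to the genome median, the H3K4me1 log2 ratio at shared regions was 0.05. The causes were not tested, beyond the fewer peaks that each threshold leaves. Leaving out the Fbxo15 window turned none of the 4 single-arm shares. No paired analysis was possible because each target had 1 list per arm, and no replicate could be left out. Heights of a few tags, and depth that differed between the arms and was not adjusted for, limit every comparison.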

Other observations

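Among the other pluripotency genes, Esrrb, an orphan nuclear receptor of the naive state, was looked at after its values were seen. The study also named Esrrb from this experiment, so its pattern is not independent of that choice. Its window held 1 FLAG peak in NanogWT and 5 in NanogBiD, with highest summits of 12 and 16 tags. BRG1 was called at 0 and 5 places, the tallest with 12 tags, and H3K27ac at 1 and 3, with highest summits of 12 and 13 tags. H3K4me1 was called at 9 places in NanogWT and 4 in NanogBiD. Sox2 had FLAG in NanogWT only, at 2 peaks of up to 10 tags, with no BRG1 and no H3K27ac in either arm. These are values of single libraries, and neither pattern was tested.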
